A study of Drosophila melanogaster with 12 samples.

Results

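The 8 genes described here encode the cytoskeleton and the long-range transport machinery of the axon: futsch, tau, Ank2, alpha-Spec, beta-Spec, shot, Khc and unc-104. They were taken by their FlyBase symbols from a table of 10422 genes, all 8 were found, and all 8 passed the filter on low counts that left 7645 genes for testing. The libraries came from heads of adult Drosophila melanogaster kept at 25 °C, with males and females in equal amounts, and genotype was labelled wt in every library. Pumilio (Pum), the founding PUF protein of flies, binds mRNAs and lowers their translation and stability. In Pum xRIP, 4 libraries of RNA were recovered with anti-FLAG beads from UV-cross-linked heads of pumFlag flies, in which a Flag-HA tag sits at the C terminus of the native protein. In control xRIP, 4 libraries were recovered in the same way from flies with no tag (w1118, labelled w118). The 4 input libraries were head lysate without immunopurification, 1 from pumFlag flies, 1 from w1118 flies and 2 labelled as mixed genotype, whose columns were named fne and rbp9.

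Reads are meant to mark the 3′ end of a transcript, 1 end for each transcript whatever its length. Futsch, however, was divided into 121 clusters of ends for 2 distinct annotated 3′ UTRs, and each input had counts in 62 to 75 of them. Levels are therefore compared between genes only approximately. Pum xRIP libraries held 3050717 to 5051009 counts, control xRIP libraries 3342790 to 4485996 and inputs 9563433 to 13726254. Levels are in CPM, counts scaled to the TMM-adjusted size of each library, and a count of 0 in an xRIP library allows a level of up to 0.49 to 0.956 CPM (3 counts). A gene was called when the quasi-likelihood test of edgeR gave an adjusted p below 0.05 and an absolute log2 fold change above 1. The labels do not say whether replicates came from separate collections of flies, so p-values measure the spread between these libraries, which may be technical. In head tissue, fewer cells of a type and less RNA per cell cannot be told apart. Markers of cell types differed between the groups. The summed level of 10 neuronal marker genes was 6974 to 11400 CPM in Pum xRIP, 697 to 1034 CPM in control xRIP and 2565 to 4874 CPM in input. Of these 10, para, Syt1, brp and VAChT had the highest means in Pum xRIP (3067, 1635, 1177 and 910 CPM), while the log2 fold change to input was -0.29 for nSyb, -0.99 for Syn and -0.87 for Gad1, so the sum does not stand for neurons as a whole. The study counts para, Syt1, brp and VAChT among the targets of Pum. The 9 photoreceptor markers summed to 17340 to 20740 CPM in Pum xRIP, against 8505 to 10330 CPM in control xRIP and 31200 to 35920 CPM in the inputs. The 6 fat body markers in the table summed to 4539 to 7052 CPM in Pum xRIP, against 3007 to 4015 CPM in control xRIP and 6993 to 18200 CPM in the inputs. The 8 glial markers summed to 1124 to 1902 CPM in Pum xRIP, against 1498 to 2057 CPM in control xRIP, with repo at 0, and 1960 to 3069 CPM in the inputs. The 7 testis markers in the table summed to 0 to 18.2 CPM in Pum xRIP, with 5 of them at 0 (Mst87F, Mst84Dc, Mst84Dd, Mst98Ca and Mst98Cb), against 601 to 1096 CPM in control xRIP, with Mst98Cb at 0, and 4.61 to 192 CPM in the inputs. The 11 muscle markers summed to 842 to 1057 CPM in Pum xRIP, with Act57B at 0, against 2406 to 2727 CPM in control xRIP and 2444 to 3657 CPM in the inputs. The part of these differences in the results below was not tested.

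Axons are held open by bundles of microtubules and by a lattice of spectrin and actin under the membrane. Futsch, the fly MAP1B, and tau bind along microtubules. Ankyrins such as Ank2 tie membrane proteins to spectrin, which is built from alpha and beta chains, and the spectraplakin shot links actin to microtubules. Along these tracks kinesin heavy chain (Khc, kinesin-1) carries mitochondria and many other cargoes outward from the cell body, and unc-104 (kinesin-3) carries the precursors of synaptic vesicles.

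The sequence that Pum recognises in a 3′ UTR, the Pumilio Response Element (PRE), was counted in each gene from its annotated sequence. It was searched as TGTANATA on the transcribed strand, with N for any base, and its core as TGTANA, which every TGTANATA contains. In the longest annotated 3′ UTR, TGTANATA was found in 2 of the 8 genes, shot and unc-104, against 23.6% of the 7394 tested genes with an annotated 3′ UTR. TGTANA was found in 4 of the 8, futsch, Ank2, shot and unc-104, against 62.1% of those genes. The 8 3′ UTRs ran from 304 bases (Khc) to 4670 bases (futsch), with a median of 345 bases over the 7394 genes.

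Each gene can also be set beside genes with a 3′ UTR within 10% of its own length. All 60 other genes with a 3′ UTR about as long as that of futsch held TGTANA and 71.7% of them held TGTANATA, where futsch held 1 TGTANA and no TGTANATA. Ank2, with 3154 bases, also held 1 TGTANA, in a length class where 98.4% of 127 genes held TGTANA and 61.4% held TGTANATA. The longest 3′ UTR of tau, 1847 bases, held neither motif, whereas 97.3% of 219 genes of that length held TGTANA. Neither motif was found in alpha-Spec (697 bases), beta-Spec (1091 bases) or Khc (304 bases), where 83.9% of 392, 91.9% of 322 and 60.2% of 420 genes of like length held TGTANA. Unc-104 held 8 TGTANA matches in 1938 bases, 1 of them a full TGTANATA, which 50.5% of 220 genes of its length held. In shot, 3 TGTANA matches lay in 1317 bases, 1 of them a full TGTANATA, which 41% of 261 genes of its length held. These counts describe letters in the annotation and say nothing of binding.

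The sites below are shown because they are the matches in futsch, tau and Ank2, the members of the microtubule-associated and ankyrin classes, and because that of tau lies in only some of its isoforms. The motif is in capitals with 10 bases on each side, read 5′ to 3′ on the transcribed strand of the dm6 genome (RefSeq), with 3′ UTRs from Ensembl.
futsch, chrX:1449754-1449779, plus strand, 748 bases into the 3′ UTR of 4670 bases: taattgaacgTGTATAacccgtaaag
tau, chr3R:27651374-27651401, minus strand, 178 bases into a 3′ UTR of 715 bases: gctgcctgctTGTAAATAaatagacaac
tau, chr3R:27643902-27643927, minus strand, 75 bases into a 3′ UTR of 1029 bases: ctttggataaTGTAAAgcacaagccc
Ank2, chr3L:7655826-7655851, minus strand, 2702 bases into the 3′ UTR of 3154 bases: ttattatataTGTACAtgtacgaagg
Ank2, chr3L:7696562-7696587, minus strand, 50 bases into a 3′ UTR of 116 bases: gtaattgttaTGTAAActtactttat

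Of these sites, only the tau site in the isoform of 715 bases carried the full element, and tau has 6 distinct annotated 3′ UTRs between 225 and 1847 bases. In Ank2, which also has 6 distinct 3′ UTRs, the 2 sites lie in different annotated 3′ UTRs. The map of motif matches along the 3′ UTRs shows the contrast between unc-104 and the other genes.

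**Figure D1:**
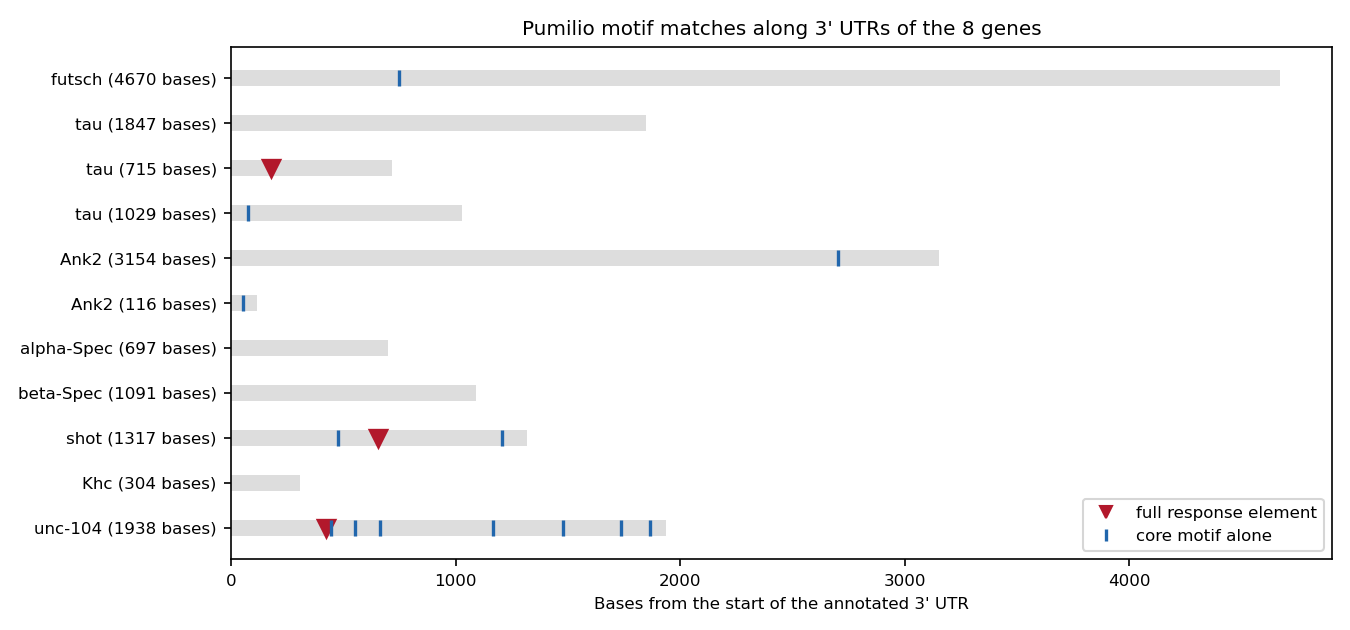
Matches of the Pumilio motifs along the annotated 3′ UTRs of the 8 genes, with bases from the start of the 3′ UTR on the x axis, 1 grey bar for the longest 3′ UTR of each gene and further bars for other isoforms of tau and Ank2 that hold a match. Triangles mark TGTANATA and blue ticks mark TGTANA alone. The 8 matches of unc-104 stand against 0 in alpha-Spec, beta-Spec and Khc.

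In the input, the 8 genes spanned a wide range of levels. Mean input levels ran from futsch at 952 ± 203 CPM (SD, n = 4 for every mean here) through Ank2 at 557 ± 110, shot at 186 ± 34.5, alpha-Spec at 167 ± 34.5, unc-104 at 49.7 ± 3.66, tau at 47.6 ± 11.3 and beta-Spec at 34.0 ± 7.28 to Khc at 12.5 ± 2.35 CPM. Neighbours in this order overlapped between shot and alpha-Spec, between unc-104 and tau and between tau and beta-Spec, and the libraries of the other neighbours did not overlap. In Pum xRIP the order was Ank2 at 277 ± 150, futsch at 239 ± 158, alpha-Spec at 177 ± 63.2, shot at 151 ± 43.7, unc-104 at 81.1 ± 39.4, tau at 61.4 ± 46.6, Khc at 24.5 ± 21.3 and beta-Spec at 5.75 ± 11.4 CPM, and all neighbours overlapped. In control xRIP, futsch was highest at 145 ± 96.2 CPM and Khc lowest at 2.23 ± 4.46 CPM.

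**Figure D2:**
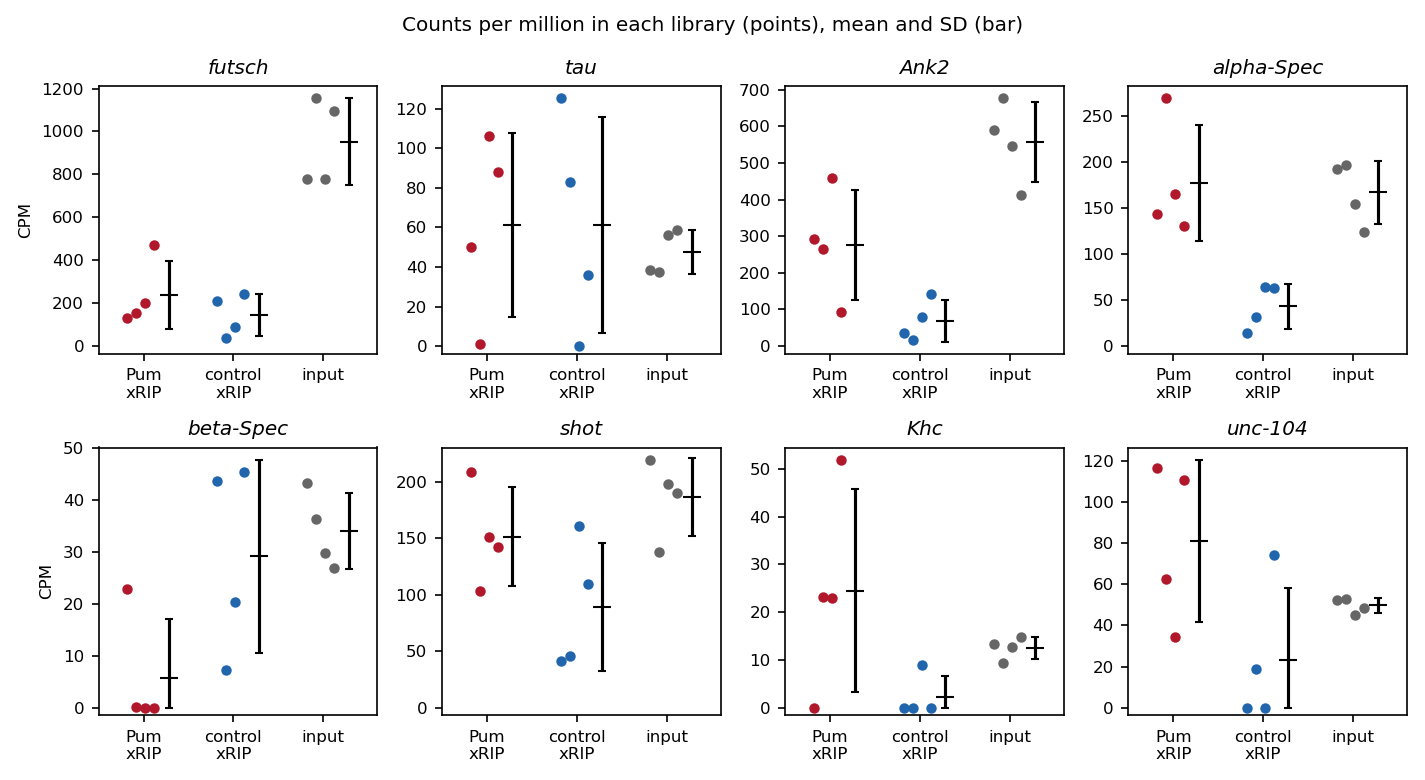
Level of each of the 8 genes in CPM (y axis, linear, 1 scale per gene) in the 4 Pum xRIP, 4 control xRIP and 4 input libraries. Points are libraries, the black mark is the mean and its bar 1 SD, drawn no lower than 0. All 4 Pum xRIP points of alpha-Spec lie above its control xRIP points, futsch lies below input in all 8 xRIP libraries, and beta-Spec is near 0 in 3 Pum xRIP libraries.

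The first comparison asked which mRNAs were more abundant with Pum than in head RNA without immunopurification, for which only the pum input came from pumFlag flies. With Pum xRIP over input, none of the 8 genes was called in either direction, where 0.549% of the 7645 tested genes were called higher and 4.87% lower. At an unadjusted p below 0.05, 0 of the 8 were higher and 1 was lower (futsch), against 184 and 1206 of all genes. DESeq2 on the same 3 groups also called 0 of the 8 in either direction, and on the 2 groups alone it called futsch lower. The median log2 fold change was -0.11 over the 8 genes and -0.54 over all tested genes. With DESeq2 size factors in edgeR the median of all genes was -0.08, and 102 genes were higher and 317 lower, in place of 42 and 372, with 0 of the 8 among them.

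The second comparison asked which mRNAs needed the tag to be recovered. Ank2 and alpha-Spec were called higher in Pum xRIP than in control xRIP, 2 of the 8 genes, where 7.72% of all tested genes were called higher. None of the 8 was called lower, against 4.45% of all genes, and at an unadjusted p below 0.05 none was lower either. DESeq2 on the same 3 groups called the same 2 genes higher and 0 lower, but 0 of the 8 were called higher without the filter on low counts (adjusted p 0.0686 for Ank2 and 0.052 for alpha-Spec), in edgeR on the 2 groups alone (0.109 and 0.0768), without the 2 inputs of mixed genotype (0.129 and 0.0975) or with the replicate number as a block (0.155 and 0.182). The median log2 fold change was 1.28 over the 8 genes and 0 over all tested genes, and 7 of the 8 were above 0, where 49.6% of all genes were. With DESeq2 size factors in edgeR the median of all genes was 0.27, and 680 genes were higher and 246 lower, in place of 590 and 340, with 2 and 0 of the 8 among them. With library totals in edgeR, 665 were higher and 229 lower.

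The third comparison measured what the beads recovered without the tag. Futsch, Ank2 and alpha-Spec, 3 of the 8 genes, were called lower in control xRIP than in input and 0 were called higher, where 10.7% and 1.82% of all tested genes were called lower and higher. The median log2 fold change was -1.52 over the 8 genes and -0.83 over all genes. The 3 comparisons share libraries, so the values for a gene are not independent of each other.

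**Figure D3:**
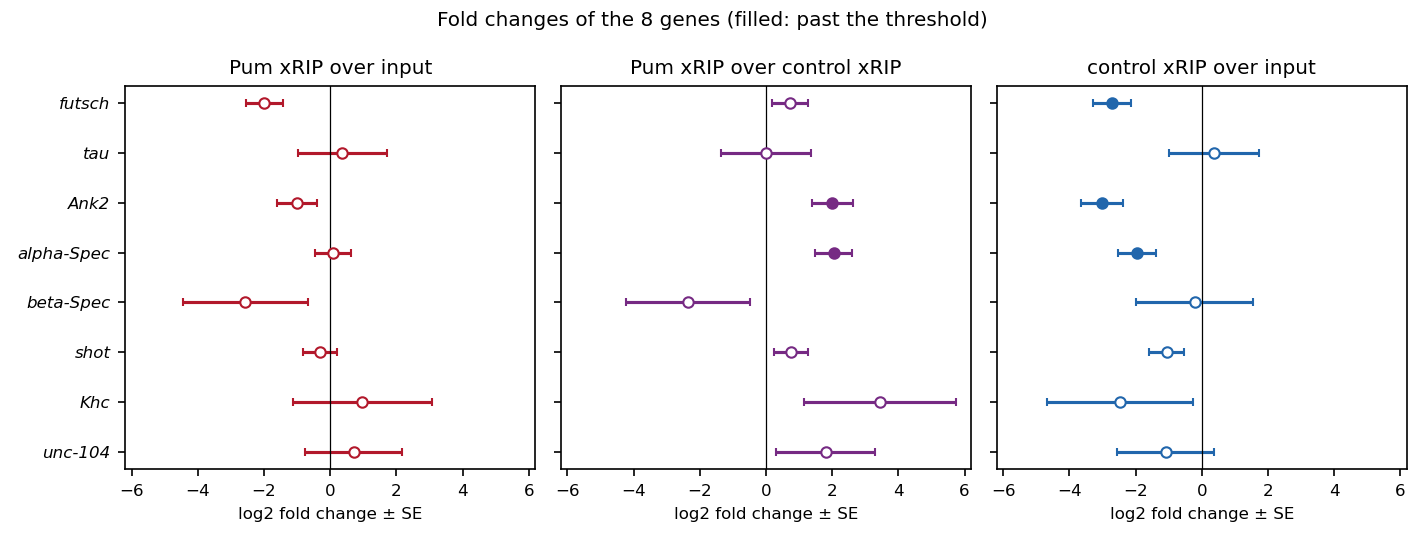
Log2 fold change with its standard error for the 8 genes in Pum xRIP over input, Pum xRIP over control xRIP and control xRIP over input (edgeR, 12 libraries). Filled points passed an adjusted p of 0.05 and an absolute log2 fold change of 1: none in the first panel, Ank2 and alpha-Spec in the second, futsch, Ank2 and alpha-Spec in the third. The bars of tau, beta-Spec, Khc and unc-104 are the longest.

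Among the microtubule-binding proteins, futsch was lower in every xRIP library than in every input. Futsch (FBgn0259108, chrX:1409069-1453686, plus strand), which shapes microtubule loops in motor nerve terminals, measured 129, 156, 200.1 and 473 CPM in the Pum xRIP replicates, against 777, 1156, 778 and 1097 CPM in the w118, pum, fne and rbp9 inputs. Every Pum xRIP library lay below every input, a 3.98-fold lower mean level by the fit (log2 fold change -1.99 ± 0.55 SE, edgeR adjusted p = 0.0509), just short of the threshold. In control xRIP futsch measured 209, 38.4, 89.6 and 241 CPM, also below every input, and this difference was called (log2 fold change -2.71 ± 0.57 SE, edgeR adjusted p = 0.00737). Between Pum xRIP and control xRIP the libraries overlapped and the difference did not pass (log2 fold change 0.72 ± 0.54 SE, edgeR adjusted p = 0.457). The call against input in Pum xRIP was sensitive to single libraries: it was made without Pum xRIP replicate 4 (log2 fold change -2.57, adjusted p = 0.031) and without any 1 of the control xRIP replicates (adjusted p 0.0173 to 0.0322).

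Tau was not called in any comparison, and its level varied widely between immunopurified libraries. Tau (FBgn0266579, chr3R:27639886-27656996, minus strand) measured 50.2, 0.98, 107 and 88.1 CPM in Pum xRIP, 125, 83.2, 0 and 36.2 CPM in control xRIP and 37.3 to 58.6 CPM in input. Each xRIP group held a library at or near 0 and others above every input. The standard error of each of the 3 log2 fold changes of tau was 1.35, against fold changes of 0.37, 0.00 and 0.37, and the lowest edgeR adjusted p was 0.959.

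The membrane skeleton held both genes that were higher with tagged Pum. Ank2 (FBgn0261788, chr3L:7655389-7718395, minus strand), the ankyrin of axons and presynaptic terminals, measured 292, 264, 459 and 92.7 CPM in the Pum xRIP replicates, against 37.0, 15.3, 79.4 and 143 CPM in the control xRIP replicates. Of the Pum xRIP libraries, 3 of the 4 lay above every control xRIP library, and Pum xRIP replicate 4 fell between control replicates 3 and 4. Ank2 was 4.02-fold higher in Pum xRIP than in control xRIP (log2 fold change 2.01 ± 0.62 SE, edgeR adjusted p = 0.0468). Its input levels were 591, 677, 547 and 414 CPM, and Pum xRIP stood at a log2 fold change of -1.01 ± 0.60 SE to input (edgeR adjusted p = 0.514) and control xRIP at -3.02 ± 0.64 SE (edgeR adjusted p = 0.00793). The mean of Ank2 was thus below the input mean in both xRIP groups. The call against control xRIP was kept without Pum xRIP replicate 4 or control xRIP replicate 4 and was lost without any other single library (log2 fold change 1.66 to 2.25, adjusted p 0.059 to 0.0981), and it was lost in a fit of the 2 groups alone (log2 fold change 2.16, adjusted p = 0.109).

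Alpha-Spec was the gene whose xRIP groups were separated in every library. Alpha-Spec (FBgn0250789, chr3L:1778485-1795328, minus strand), the only alpha chain of spectrin in the fly, measured 143, 269, 165 and 131 CPM in the Pum xRIP replicates, against 14.0, 31.2, 63.8 and 62.8 CPM in the control xRIP replicates. The lowest Pum xRIP library thus lay above the highest control xRIP library, and the mean level was 4.12-fold higher in Pum xRIP (log2 fold change 2.04 ± 0.57 SE, edgeR adjusted p = 0.033). Inputs measured 193, 196, 155 and 123 CPM, overlapping Pum xRIP (log2 fold change 0.09 ± 0.54 SE, edgeR adjusted p = 0.999) and above every control xRIP library (log2 fold change of control xRIP to input -1.95 ± 0.56 SE, edgeR adjusted p = 0.0373). The call against control xRIP was lost without Pum xRIP replicate 2, Pum xRIP replicate 3 or the w118, fne or rbp9 input, at log2 fold changes of 1.77 to 2.08 and adjusted p of 0.0525 to 0.0687. The call of control xRIP against input was lost without any 1 input (adjusted p 0.0532 to 0.0882), and the one against control xRIP was lost in a fit of the 2 groups alone (log2 fold change 2.20, adjusted p = 0.0768).

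The partner chain was not called in any comparison. Beta-Spec (FBgn0250788, chrX:17657372-17669371, plus strand), the chain that pairs with alpha-Spec in the spectrin tetramer, measured 22.9, 0.163, 0 and 0 CPM in Pum xRIP, against 43.6, 7.23, 20.4 and 45.4 CPM in control xRIP and 43.1, 36.3, 29.7 and 26.8 CPM in input. Behind the Pum xRIP values stood 77, 1, 0 and 0 counts. All 4 Pum xRIP libraries lay below every input, yet neither difference passed, with log2 fold changes of -2.56 ± 1.88 SE to input (edgeR adjusted p = 0.712) and -2.35 ± 1.87 SE to control xRIP (edgeR adjusted p = 0.505). Without Pum xRIP replicate 1, which holds 77 of the 78 counts, beta-Spec was called lower in Pum xRIP than in input (adjusted p = 0.0266) and than in control xRIP (adjusted p = 0.0169).

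The counts of the spectrin chains, set side by side after the values were seen, were steady relative to each other only in the input. Alpha-Spec had 481, 1649, 898 and 538 counts in the Pum xRIP replicates, where beta-Spec had 77, 1, 0 and 0. On the scale log2((alpha-Spec + 0.5)/(beta-Spec + 0.5)) the ratio was 2.63 in Pum xRIP replicate 1, and it is not given for the other Pum xRIP replicates, where the 0.5 would set it. It was -1.63, 2.09, 1.64 and 0.47 in the control xRIP replicates and 2.16, 2.43, 2.38 and 2.20 in the w118, pum, fne and rbp9 inputs, so every control xRIP ratio lay below every input ratio.

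The crosslinker shot was not called in any comparison. Shot (FBgn0013733, chr2R:13864237-13942110, minus strand), which joins actin to microtubules in growing axons, measured 209, 103, 151 and 142 CPM in Pum xRIP, against 41.1, 45.9, 160.3 and 109 CPM in control xRIP and 219, 138, 198 and 190.0 CPM in input. The groups overlapped in all 3 comparisons. Its log2 fold change was -0.30 ± 0.52 SE in Pum xRIP against input (edgeR adjusted p = 0.985), a sign that turned to 0.16 with DESeq2 size factors, and 0.76 ± 0.52 SE in Pum xRIP against control xRIP (edgeR adjusted p = 0.405). Control xRIP stood at -1.06 ± 0.52 SE to input (edgeR adjusted p = 0.228), and without control xRIP replicate 3 it was called lower (log2 fold change -1.77, adjusted p = 0.0426).

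Both kinesin motors had counts in more libraries with the tag than without it, and neither was called. Over all genes, Pum xRIP libraries had counts in 4100 to 6110 genes and control xRIP libraries in 3992 to 5134. Khc (FBgn0001308, chr2R:16266960-16271971, minus strand) measured 0, 23.2, 23.0 and 51.9 CPM in Pum xRIP, against 0, 0, 8.93 and 0 CPM in control xRIP and 13.3, 9.26, 12.7 and 14.8 CPM in input. Thus 3 of the 4 Pum xRIP libraries lay above every control xRIP library and above every input, and replicate 1 held no count. The log2 fold change was 3.45 ± 2.30 SE to control xRIP (edgeR adjusted p = 0.388) and 0.97 ± 2.10 SE to input (edgeR adjusted p = 0.988). All 28 counts of Khc in control xRIP came from replicate 3, and without that library Pum xRIP was called higher than control xRIP (adjusted p = 0.0482) and control xRIP lower than input (adjusted p = 0.0467).

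Unc-104 (FBgn0267002, chr2R:16751503-16772671, minus strand), the gene with the most Pumilio motifs of the 8, measured 117, 62.6, 34.5 and 111 CPM in Pum xRIP, against 0, 18.6, 0 and 74.2 CPM in control xRIP. Its inputs were narrow, at 52.3, 53.0, 45.1 and 48.5 CPM, and 3 of the 4 Pum xRIP libraries lay above all of them. The difference did not pass against control xRIP (log2 fold change 1.80 ± 1.49 SE, edgeR adjusted p = 0.53) or against input (log2 fold change 0.71 ± 1.46 SE, edgeR adjusted p = 0.986).

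The spread between libraries limits what these values can show. The xRIP libraries of each group varied far more than the inputs, with a common dispersion of 3.79 in Pum xRIP and 4.81 in control xRIP against 0.223 in input. A difference that did not pass is therefore not shown to be absent. All 12 libraries shared 1 estimate of spread in the fit, so the inputs also entered the spread used between Pum xRIP and control xRIP. The adjusted p of Ank2 and alpha-Spec there may be too low. Both calls were lost in an edgeR fit of the 2 groups alone (adjusted p 0.109 and 0.0768).

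Each gene ends at several places, and the deposited counts divide its reads among numbered 3′-end clusters, which carry no coordinates. The numbers were taken to follow genomic order, so that on the minus strand the lowest number lies nearest the 3′ end of the gene. The 8 genes had 256 clusters, from 7 in beta-Spec and Khc to 121 in futsch, and 60 passed the filter on low counts. The xRIP libraries held few of them: futsch had counts in 4 to 16 clusters in Pum xRIP and 2 to 9 in control xRIP, against 62 to 75 in input. For Ank2 the numbers were 3 to 11 in Pum xRIP, against 1 to 5 in control xRIP and 20 to 25 in the inputs, and for shot 4 to 9, 3 to 6 and 15 to 16. Over all 56392 clusters, Pum xRIP libraries had counts in 7675 to 13481, control xRIP libraries in 6184 to 8612 and inputs in 28042 to 36620. A low number of clusters with counts was thus common to the xRIP libraries and not particular to these genes.

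Single ends were compared between the groups in the same way. Of the 60 tested clusters, 0 were called higher and 13 lower in Pum xRIP than in input, where 0.211% and 9.48% of all 14235 tested clusters were. Futsch held 8 of the 13, Ank2 3, beta-Spec 1 and unc-104 1, and 9 of the 13 had no count in any Pum xRIP library. In control xRIP, 0 were called higher and 23 lower than in input, against 0.576% and 25.6% of all clusters, 15 of them in futsch, and 20 of the 23 had no count in any control xRIP library. A cluster with no count in any xRIP library passed the filter through its input counts alone and had to come out lower, so these counts are a description and no support for a difference. Between Pum xRIP and control xRIP, 2 were called higher and 1 lower, against 8.91% and 3.07% of all clusters.

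Those 3 clusters lie in alpha-Spec, unc-104 and beta-Spec. Cluster 7 of alpha-Spec held 0, 196, 120 and 64 counts in Pum xRIP, 0 counts in all 4 control xRIP libraries and 389, 318, 320 and 196 counts in input. Against a limit of 3 counts over the control group it was at least 93.5-fold higher in Pum xRIP (edgeR adjusted p = 0.0341). Cluster 6 of unc-104 held 56, 284, 106 and 67 counts in Pum xRIP, no count in control xRIP and 338, 108, 150 and 155 counts in input, at least 126-fold higher in Pum xRIP than in control xRIP by the same limit (edgeR adjusted p = 0.0113). Cluster 7 of beta-Spec, the largest cluster of that gene in the inputs, went the other way: 0, 1, 0 and 0 counts in Pum xRIP, against 159, 0, 64 and 167 counts in control xRIP, a ratio of 0.00189 with a 95% counting interval of 4.78e-05 to 0.0106 (edgeR adjusted p = 0.0251). The calls of alpha-Spec and beta-Spec were lost at an adjusted p just above 0.05 without several single libraries (up to 0.0742 and 0.0545). The counting limits use counts summed over a group and leave out the spread between its libraries. Reads without molecular identifiers also make them too narrow.

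In Ank2 the largest cluster of the input was not the largest in most Pum xRIP libraries. Cluster 10, an end upstream of clusters 1 and 2, held 51.2 ± 6.48% of the Ank2 counts in input (SD, n = 4), against 24.9 ± 26% in Pum xRIP and 13.5 ± 15.6% in control xRIP. In counts it held 282, 0, 283 and 228 in Pum xRIP, 0, 0, 65 and 147 in control xRIP and 4360, 3160, 2690 and 2271 in input. Cluster 2 instead held 41.2 ± 18.3% in Pum xRIP, with 364, 1043, 1069 and 77 counts, against 10.4 ± 12.4% in control xRIP, with 1, 0, 37 and 136 counts, and 19.6 ± 3.92% in input. The identifier of cluster 2 lacks the closing character that most cluster identifiers carry, and what this marks is not given in the sources used here. Cluster 1, the lowest number, held 20.4 ± 3.7% in Pum xRIP, against 61.1 ± 34.5% in control xRIP and 10.9 ± 5.86% in the input. Cluster 2 was the largest in 3 of the 4 Pum xRIP libraries, and cluster 10 in all 4 inputs. Neither was called in Pum xRIP against input (edgeR adjusted p 0.987 for cluster 2 and 0.4285 for cluster 10). Against control xRIP neither was called (0.0884 and 0.576).

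In the other genes the mix of ends varied widely between xRIP libraries. In futsch, cluster 122, the end of highest number, held 51.9 ± 16.4% of counts in Pum xRIP, against 71.4 ± 18.9% in control xRIP and 53.2 ± 10.1% in the input. The internal clusters 21 and 30 of futsch, with 3223 and 2209 counts over the inputs, held 85 and 185 counts in Pum xRIP and 1 and 0 in control xRIP. In alpha-Spec, cluster 1 held 48.9 ± 21.6% in Pum xRIP, against 56 ± 42.2% in control xRIP and 37.4 ± 8.32% in the input. In shot, cluster 7 held 37.7 ± 20% in Pum xRIP, against 13.9 ± 11.9% in control xRIP and 35.8 ± 3.66% in the input. In beta-Spec, all 77 counts of Pum xRIP replicate 1 fell in cluster 3, an end with 164 counts over the inputs and none in control xRIP.

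**Figure D4:**
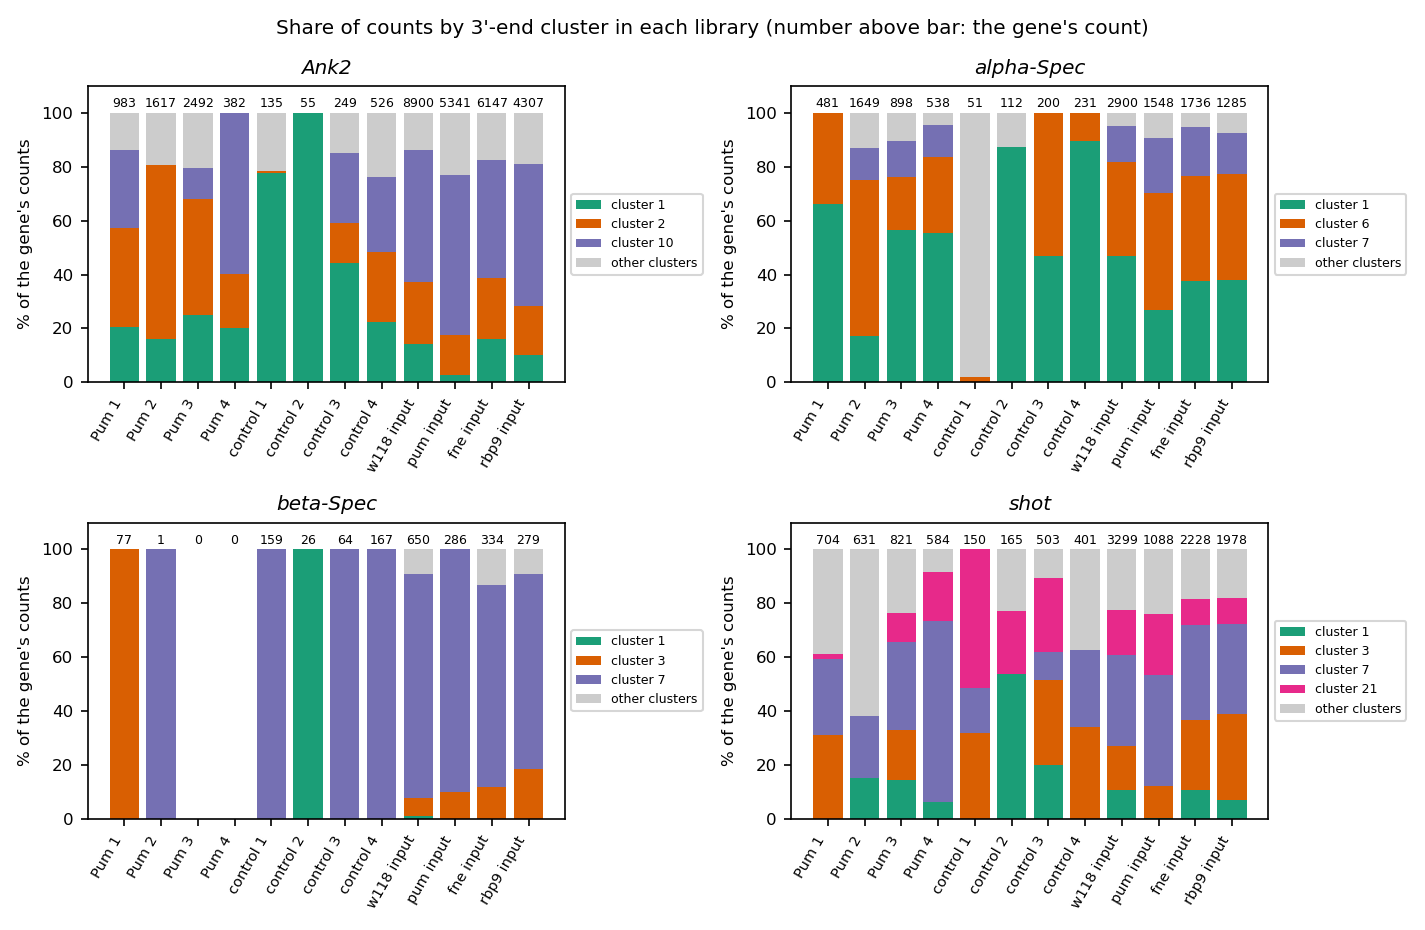
Share of the counts of Ank2, alpha-Spec, beta-Spec and shot that fell in each main 3′-end cluster (y axis, percent), 1 bar per library, with the count of the gene above the bar. Pum and control stand for Pum xRIP and control xRIP. The inputs resemble each other, whereas bars of 1 or 2 colours recur in the xRIP libraries, and 2 Pum xRIP libraries hold no beta-Spec count.

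A test of unequal use of ends within a gene, run over 3095 genes with diffSpliceDGE of edgeR, called futsch, Ank2 and beta-Spec in Pum xRIP against input (3 of 8, adjusted p 0.00232, 0.0176 and 0.0469), where 12.1% of all genes were called. It called futsch, Ank2, beta-Spec, shot and unc-104 in Pum xRIP against control xRIP (5 of 8), where 39.7% of all genes were called, and futsch, Ank2 and beta-Spec in control xRIP against input (3 of 8), where 28.2% were called. Some tested clusters of futsch and Ank2 had no count in any xRIP library and passed the filter through input alone. Unequal use of ends against input thus followed in part from the filter for futsch and Ank2. Beta-Spec rested on 77, 1, 0 and 0 counts in Pum xRIP. The usage calls against input are therefore a description. With the Simes method on the same fits none of the 8 was called in any comparison, and 1, 43 and 32 of all genes were. In a fit of the 2 xRIP groups alone none of the 6 members with a value was called between them, and beta-Spec and Khc had no value there.

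Other genes of the same pathways were counted in the same way. A list of 64 related genes, chosen for their roles with earlier results of these data known, had 60 in the table and 55 tested. In Pum xRIP against input, 0 of the 55 were higher and 3 lower, where 0.549% and 4.87% of all tested genes were. In Pum xRIP against control xRIP, 7 were higher and 0 lower, where 7.72% and 4.45% of all genes were. In control xRIP against input 0 were higher and 11 lower, where 1.82% and 10.7% of all genes were. The median log2 fold changes over the 55 were -0.41, 0.83 and -1.48, against -0.54, 0 and -0.83 over all tested genes, and the second was 0.80 with genes at 0 in a whole group set at their limit.

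The class of cargo adaptors and their regulators, which includes an exchange factor, a scaffold and a kinase, held 6 of the 7, out of 11 tested, with a median log2 fold change of 3.99 in Pum xRIP against control xRIP and of 0.68 against input. Miro, the GTPase that couples mitochondria to motors, had 493, 1477, 951 and 393 counts in Pum xRIP, against 0, 0, 7 and 0 in control xRIP (edgeR adjusted p = 0.00345) and 367, 254, 175 and 238 in the w118, pum, fne and rbp9 inputs. Every Pum xRIP library thus held far more Miro counts than any control xRIP library. Appl, the fly amyloid precursor protein, averaged 299 ± 92.7 CPM in Pum xRIP, against 43.2 ± 15.4 CPM in control xRIP and 499.9 ± 122 CPM in the inputs (SD, n = 4). Its log2 fold change was 2.79 ± 0.41 SE to control xRIP (edgeR adjusted p = 0.000706). Rab3-GEF, the exchange factor of the vesicle GTPase Rab3, averaged 148 ± 70.6 CPM in Pum xRIP, against 4.71 ± 4.43 CPM in control xRIP and 56.6 ± 10.6 CPM in the inputs. Its log2 fold change was 4.96 ± 1.15 SE to control xRIP (edgeR adjusted p = 0.0136).

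The remaining calls rested on fewer libraries. Arl8, a GTPase of lysosomes and synaptic vesicle precursors, had 0, 274, 91 and 195 counts in Pum xRIP and none in control xRIP (edgeR adjusted p = 0.0342). In summed counts it was at least 138-fold higher by the limit of 3 counts. Liprin-alpha, a scaffold of the active zone, had 1, 356, 281 and 0 counts in Pum xRIP and none in control xRIP (edgeR adjusted p = 0.0468), at least 157-fold higher in summed counts. The kinase wnd (DLK) had 49, 694, 0 and 241 counts in Pum xRIP, against 0, 0, 2 and 0 in control xRIP (edgeR adjusted p = 0.0296). Its ratio of summed counts was 363 with a 95% counting interval of 100.3 to 3003. These limits pool the libraries of a group and leave out the spread between them. A Pum xRIP library at 0 lay no higher than control xRIP.

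Of the kinesin-II subunits, Kap3 was called against control xRIP. Kap3, the non-motor subunit, had 0, 0, 318 and 276 counts in Pum xRIP and none in control xRIP (edgeR adjusted p = 0.049). It was at least 146-fold higher in summed counts, a limit that leaves out the spread between libraries. Its log2 fold change to input was -0.02 ± 1.99 SE, which was not called. The motor subunit Klp68D averaged 4.14 ± 5.36 CPM in Pum xRIP, against 5.90 ± 11.8 CPM in control xRIP and 11.1 ± 4.39 CPM in the inputs, and was not called. The motor subunit Klp64D had no count in any of the 8 xRIP libraries and 107, 25, 112 and 60 counts in the w118, pum, fne and rbp9 inputs. It passed the filter through the inputs alone, so its call against input followed from the filter, and the difference between subunits was not tested. The other related genes called lower in Pum xRIP than in input were alphaTub84B, the main alpha-tubulin, with a log2 fold change of -2.50 ± 0.56 SE (edgeR adjusted p = 0.0169), and ctp, the LC8 light chain of dynein, with -1.62 ± 0.31 SE (edgeR adjusted p = 0.0096). Between Pum xRIP and control xRIP, no tubulin (4 tested) or microtubule regulator (12) was called. Nor was any further spectrin skeleton gene (6) or dynein and dynactin gene (15). Over all tested genes, 7.72% were called higher and 4.45% lower there, so classes this small can hold no call. Log2 fold changes of the uncalled microtubule regulators ran from -0.45 to 3.14, and a difference between the classes was not tested.

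Across the 12 libraries, the genes whose log2(CPM + 1) followed each member most closely were TP53INP for futsch (Pearson r 0.94), conu for tau (0.97), egh for Ank2 (0.94), pros for alpha-Spec (0.96), CG3663 for beta-Spec (0.96), stol for shot (0.96), dpr6 for Khc (0.97) and CG13893 for unc-104 (0.98). Each is the highest of 7637 genes and the points share 3 groups, so these values are a description. Among the 8 genes, r was 0.84 between alpha-Spec and Ank2 and 0.81 between shot and Ank2, against -0.32 between beta-Spec and alpha-Spec.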

How the data were processed

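Libraries were prepared with the QuantSeq REV 3′-end kit. The authors used fastp for trimming and STAR 2.6.1b for mapping to dm6, with no introns allowed. They discarded signal beside genomic runs of A, kept signal in or just downstream of genes and merged neighbouring ends into clusters. The deposited values are raw counts, 1 table of genes and 1 of 3′-end clusters, without normalization or molecular identifiers, so limits from counts cover counting error only. The fne and rbp9 columns could not be told apart by label and entered as members of the input group.

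Counts of 12 libraries in 3 groups were fitted with edgeR 4.0.16 in R 4.3.3 (TMM, filterByExpr, quasi-likelihood F test, Benjamini-Hochberg adjustment over all genes or clusters tested). The standard error was the log2 fold change over the square root of F. Clusters were tested likewise and their usage with diffSpliceDGE. Cluster numbers were read as genomic order because the largest cluster had the highest number in 551 and the lowest in 154 of 1962 plus-strand genes, against 157 and 504 of 2047 minus-strand genes. 3′ UTRs were those of Ensembl 115, which held 10345 of the 10422 genes. The scripts were tested on simulated data. All 8 genes are named. Of related genes, those called in Pum xRIP against input and up to 10 called against control xRIP are named, and for each member the gene with the highest correlation. Members and lists were chosen with earlier results of these data known. Alternatives were DESeq2 1.42.0, other scalings, no filter, fewer groups or inputs, single libraries left out, a replicate block, the Simes method, and TGTANA or the last 500 bases in the motif search.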

Additional observations from a re-analysis of the deposited data

Results flagged for a closer look

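Among the 24 groups of 4 libraries, 1 for each gene and group, 2 held a library far from the other 3 by Dixon's criterion. Chance alone flags about 1 of 20 groups of normally distributed values. That rate does not apply to the 2 flagged groups, where the other 3 libraries lay at or near 0. Beta-Spec measured 22.9 CPM in Pum xRIP replicate 1, where the other Pum xRIP libraries lay between 0 and 0.163 CPM. Khc measured 8.93 CPM in control xRIP replicate 3, where the other control xRIP libraries held no count. Both single libraries set whether the gene was called, as given with the values of these genes.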

How the results depend on the processing

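Over 464 alternative values of single genes, 411 kept their direction and their side of the threshold, 29 lost and 12 gained a call, and 12 turned sign, each of them uncalled. Shot in Pum xRIP against input turned to 0.16 with DESeq2 size factors in edgeR and in DESeq2 on 3 groups, and alpha-Spec there to -0.15 without the 2 inputs of mixed genotype. Leaving out single libraries, log2 fold changes ran from -0.20 to 0.20 for alpha-Spec in Pum xRIP against input and, for tau, from -0.045 to 0.77 in Pum xRIP against input, from -0.40 to 0.79 in Pum xRIP against control xRIP and from -0.52 to 0.49 in control xRIP against input. The size factors moved the median of all genes in Pum xRIP against input from -0.54 to -0.08.

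The number of the 8 genes called higher in Pum xRIP than in control xRIP was 0 without the filter, in edgeR on the 2 groups, without the 2 inputs of mixed genotype and with the replicate block, and 0 to 2 without single libraries. Same-numbered xRIP libraries did not deviate together (correlations 0.00308 to 0.0246). Of all genes, the block called 245 above and 122 below control xRIP. In Pum xRIP against input, DESeq2 and edgeR on the 2 groups called 1 of the 8 lower. Without single libraries 0 to 1 were lower in Pum xRIP than in input or control xRIP, and 2 to 5 in control xRIP than in input. Over all genes and alternatives, 2 to 455 were called higher and 33 to 1615 lower in Pum xRIP than in input (42 and 372 in the reported fit), 228 to 1338 higher and 122 to 628 lower than in control xRIP (590 and 340), and 62 to 372 higher and 253 to 2059 lower in control xRIP than in input (139 and 817). DESeq2 called 8 clusters of the 8 genes lower than input in Pum xRIP, and 11 higher and 4 lower than control xRIP. The DESeq2 share over all clusters is not given here, so these counts are no result about the 8 genes. Without single libraries, in edgeR, those counts were 6 to 23, 1 to 5 and 0 to 1, and 10 to 42 were lower in control xRIP than in input. Over all clusters the same counts were 862 to 3461, 493 to 1911, 166 to 342 and 1580 to 6045. For usage of ends, the Simes method called 0 of the 8 in each comparison. EdgeR on the 2 groups called 0 (beta-Spec and Khc had no value) in Pum xRIP against control xRIP and 5 in control xRIP against input. The share over all genes in those 2-group fits is not given here, so these counts are no result about the 8 genes. TGTANA in place of TGTANATA was found in 4 of the 8 genes, and TGTANATA in the last 500 bases in 0. Of 2944 tested genes with a 3′ UTR of at least 500 bases, 20.2% held TGTANATA there, and the 3′ UTR of Khc has only 304 bases. In the xRIP libraries 3 counts correspond to up to 0.956 CPM, below the mean input level of each of the 8 genes. The cause of the spread between xRIP libraries was not tested.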
